A study of Mus musculus with 6 samples.

Results

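Purkinje neurons are the only neurons that send signals out of the cerebellar cortex, and 31 genes known for their activity in these cells were followed in mice fed a low-manganese (Mn) diet or a normal-Mn diet. The genes were taken from a list of Purkinje neuron genes by symbol, and all 31 were found among the 53715 mouse genes counted. RNA was taken from the cerebella of male C57BL/6 mice, 4 weeks old at purchase, which had eaten the low-Mn diet (0 ppm Mn by the sample labels, nominally below 0.01 ppm by the methods, which also give a measured content that could exceed this) or the normal-Mn diet (35 ppm Mn) for 14 days. Each diet had 3 mice, with 1 cerebellum and 1 polyadenylated RNA library per mouse. The study describes the 3 replicates as biological in some places and technical in others, and if they are technical the p-values hold for the spread of these libraries alone. All groups were of the same strain and sex, no allele was altered, and the whole organ was used, so that in these bulk libraries fewer Purkinje neurons and less RNA per Purkinje neuron cannot be told apart.

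A Purkinje neuron receives glutamate from parallel fibres of granule neurons and from a climbing fibre, and it inhibits the deep cerebellar nuclei. Glutamate from parallel fibres acts, through a G protein, on phospholipase C beta. The enzyme makes inositol trisphosphate (IP3), which releases calcium from the endoplasmic reticulum through the receptor encoded by Itpr1, and strong buffers and pumps then bind or remove the calcium. Nuclear receptor RORalpha, encoded by Rora, keeps the adult program of the cell on, and mice that lack it lose Purkinje neurons.

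The upstream windows of 4 of the genes are printed to show the letters that RORalpha can read. RORalpha binds the core AGGTCA, usually after a stretch rich in A and T. In the 250 bases before a RefSeq transcription start (GRCm38.p6), AGGTCA on either strand stood in 9 of the 35 windows of the 22 genes that had an entry, or 25.7%, and in 14% of all 32851 windows. Windows of a gene can overlap, and 2 of the 9, both of Pcp2, hold the same copy of the core. The 7 genes with it were Pcp2, Pcp4, Dner, Plcb3, Rgs8, Arhgef33 and Gpr63. Calb1, Car8, Doc2b, Foxp2, Itpr1, Lhx5, Nefh, Ppp1r17 and Skor2 were not matched. The windows shown are those with the core and no annotated exon, 5′ to 3′ on the strand of the gene, and the capitals mark AGGTCA or its reverse complement TGACCT.
Pcp4, chr16:96467356-96467605, plus strand: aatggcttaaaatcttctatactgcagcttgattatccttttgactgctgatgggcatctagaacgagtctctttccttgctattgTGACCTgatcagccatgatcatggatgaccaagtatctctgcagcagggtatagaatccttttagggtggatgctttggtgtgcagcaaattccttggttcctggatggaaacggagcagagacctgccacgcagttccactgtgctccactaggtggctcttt
Dner, chr1:84696222-84696471, minus strand: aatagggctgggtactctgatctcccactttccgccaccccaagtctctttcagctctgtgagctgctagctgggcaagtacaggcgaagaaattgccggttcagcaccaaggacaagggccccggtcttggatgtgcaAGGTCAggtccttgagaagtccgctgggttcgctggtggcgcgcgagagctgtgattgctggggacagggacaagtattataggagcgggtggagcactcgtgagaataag
Plcb3, chr19:6969815-6970064, minus strand: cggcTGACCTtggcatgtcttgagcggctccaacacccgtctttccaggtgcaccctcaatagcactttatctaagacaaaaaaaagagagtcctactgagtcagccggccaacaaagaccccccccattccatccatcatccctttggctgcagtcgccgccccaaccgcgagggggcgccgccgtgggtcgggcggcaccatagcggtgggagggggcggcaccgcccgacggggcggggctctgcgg
Arhgef33, chr17:80307157-80307406, plus strand: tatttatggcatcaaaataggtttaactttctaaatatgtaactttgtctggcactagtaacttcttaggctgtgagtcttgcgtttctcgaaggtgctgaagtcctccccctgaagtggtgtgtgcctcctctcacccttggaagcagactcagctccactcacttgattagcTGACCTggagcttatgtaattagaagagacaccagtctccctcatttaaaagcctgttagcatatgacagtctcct
The first base of the core lay 164 bases before the start in Pcp4, 111 in Dner, 246 in Plcb3, at a start within the annotated gene, and 76 in Arhgef33. A match to these 6 letters describes the window and does not show binding.

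All 31 genes were well above the limit of counting. The lowest value of any of them in any library was 167 counts, for Foxp2, and the highest 86530, for Itpr1, from totals of 14548336 to 17124327 counts in low-Mn libraries, against 18446701 to 21277469 in normal-Mn libraries. Low-Mn libraries were thus all the smaller ones. The genes together took 1.66%, 1.67% and 1.68% of the counts in low-Mn replicates 1 to 3, against 1.66%, 1.58% and 1.68% in normal-Mn replicates 1 to 3. Their share was thus lowest in normal-Mn replicate 2, and the diets overlapped. Replicate pairs with normal-Mn replicate 2 also differed the most from each other in their counts over all tested genes (chi-square per degree of freedom 6.82 and 7.59, against 3.61 to 3.98 for the other 4 pairs).

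Levels were compared between genes only after division by exon length, averaged over the 6 libraries. This length merges all annotated exons of a gene, so the order depends in part on the annotation. The unit is CPM per kilobase, where CPM are counts scaled to the size of the library with TMM factors. Pvalb, which encodes the calcium buffer parvalbumin, came first at 653 CPM per kb and Aldoc, the glycolytic enzyme aldolase C that marks zebrin stripes, second at 617, with ranges that overlapped. Aldoc is made by astrocytes too, and Pvalb by interneurons of the molecular layer. Car8, a carbonic anhydrase relative that binds the IP3 receptor, had 490 and Pcp4, a small calmodulin binding protein, 451, and these also overlapped. Calb1, which encodes calbindin, followed at 257, Pcp2, a modulator of G proteins that is nearly restricted to these cells, at 234, the G protein gamma subunit gene Gng13 at 228 and Itpr1 at 222.

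At the other end of the order, Foxp2, a forkhead transcription factor, had 0.659 CPM per kb, Prkg1, which encodes cyclic GMP dependent protein kinase I, 1.73, Ryr1, a calcium release channel best known from skeletal muscle, 3.81, and Skor2, a corepressor that Purkinje neurons need to mature, 5.87. Pvalb stood 991-fold above Foxp2, a figure that depends on their merged exon lengths of 1041 and 16346 bases. Of the 30 pairs of neighbours in the order, 14 had ranges over the 6 libraries that overlapped, such as Rora and Plcb4 (32.1 and 31.4 CPM per kb) and Doc2b and Rora (32.5 and 32.1). The other 16 pairs were apart in all libraries.

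**Figure D1:**
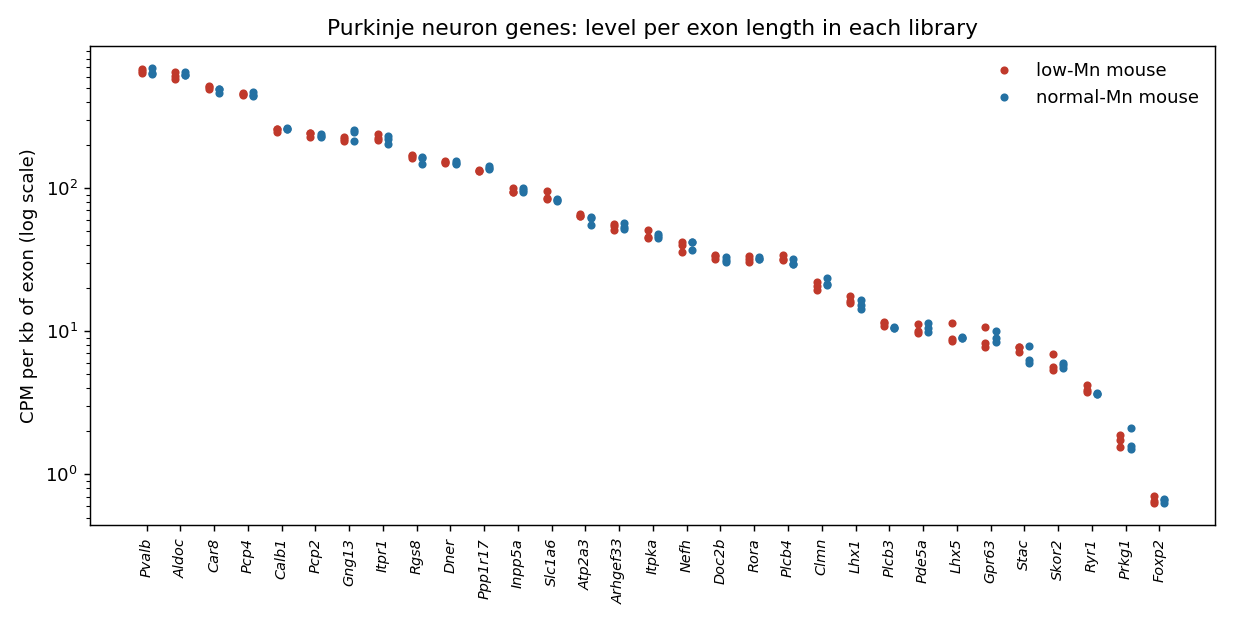
Level of each Purkinje neuron gene in each library, as CPM per kilobase of exon on a log axis, with low-Mn mice in red and normal-Mn mice in blue. The genes run from Pvalb (653 on average) to Foxp2 (0.659), and low-Mn and normal-Mn points of a gene lie close together, while 14 of the 30 pairs of neighbouring genes overlap.

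The main question was whether 14 days on the low-Mn diet altered these genes. None of the 31 genes passed at an adjusted p of 0.05 (edgeR, quasi-likelihood test with Benjamini-Hochberg adjustment), where 0.595% of all 16123 tested genes did (96 genes). By direction, 0 of the 31 rose against 0.416% of all tested genes, and 0 fell against 0.18%. None passed with limma-voom or DESeq2 either, though DESeq2 gave no adjusted p for 6 of the 31. At an unadjusted p under 0.05, edgeR counted 0 of the 31, where it counted 12.1% of all tested genes. Limma-voom and DESeq2 each counted 2 of the 31, and their own shares over all genes are not given here. The smallest adjusted p was 0.424, for Plcb4. The 96 calls over all genes numbered 47, 37 and 45 when low-Mn replicate 1, low-Mn replicate 2 or normal-Mn replicate 2 was left out, and the 31 genes gave 0 calls in each of the 14 alternatives.

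The intervals of the differences were narrow. Log2 fold changes (low-Mn over normal-Mn) ran from -0.11 for Gng13 to 0.17 for Stac, with a median of 0.019 against -0.0025 over all tested genes. Of the 31 values, 19 lay above 0 and 12 below. Their median standard error was 0.0491, against 0.0962 over all tested genes. The 95% interval of the log2 fold change stayed within a 1.2-fold difference for 25 of 31 genes and within 1.5-fold for all 31, against 42.3% and 72.8% of all tested genes. Of the 35 related genes described below, 34 stayed within 1.2-fold and 35 within 1.5-fold, so narrow intervals were not particular to the 31. These 35 are 21 genes of the parallel fibre synapse and its calcium pathway and 14 further Purkinje neuron genes. The 6 of the 31 genes outside 1.2-fold were Stac, Lhx5, Gpr63, Skor2, Prkg1 and Foxp2, which were also the 6 with a mean under 50 CPM. These intervals rest on edgeR's estimate of the spread between mice.

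The 3 low-Mn values and the 3 normal-Mn values did not overlap in 5 of the 31 genes (16.1%), nor in 17.1% of all tested genes. Ryr1, Atp2a3, Plcb3 and Slc1a6 were the 4 with higher low-Mn values (background 8.79%), and Ppp1r17 was the 1 with lower ones (background 8.32%). The share was near that of genes in general.

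**Figure D2:**
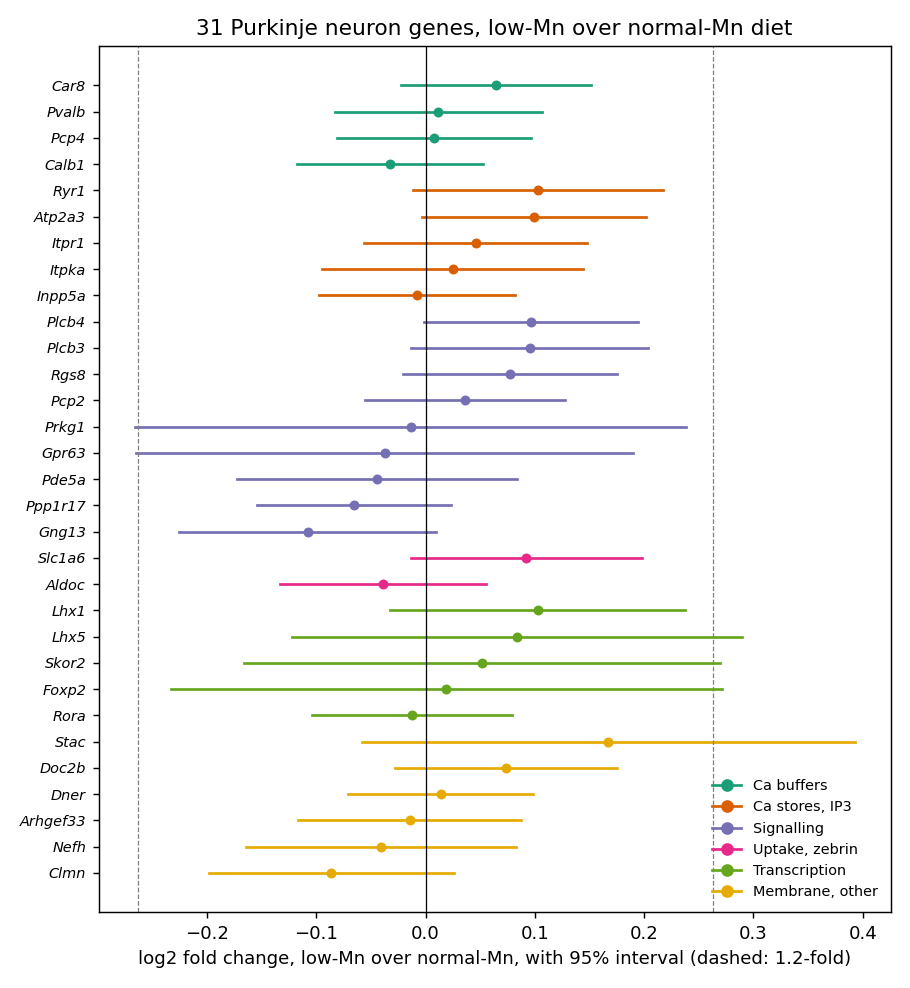
Log2 fold change of each gene, low-Mn over normal-Mn, with its 95% interval from edgeR's quasi-likelihood fit (3 mice per diet), grouped by role. Every interval includes 0, and those of Stac, Lhx5, Gpr63, Skor2, Prkg1 and Foxp2 reach past the dashed lines at a 1.2-fold difference.

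Among the calcium buffers and their partners, 0 of 4 genes passed. Calb1 (ENSMUSG00000028222.2, chr4:15881264-15908064 of GRCm38) had 1257, 1185 and 1255 CPM in low-Mn mice, against 1259, 1265 and 1257 CPM in normal-Mn mice. Low-Mn replicate 2 lay lowest and the diets overlapped, with a log2 fold change of -0.03 (standard error 0.0409, 95% interval -0.12 to 0.05, edgeR adjusted p = 0.817). Pcp4 (chr16:96467606-96525793) had 469.7, 465 and 458 CPM in low-Mn mice, against 455, 483 and 447 CPM in normal-Mn mice. Its log2 fold change was 0.01 (interval -0.08 to 0.10), and the diets overlapped. Pvalb averaged 682 ± 19.0 CPM in low-Mn mice and 677 ± 37.0 CPM in normal-Mn mice (SD, n = 3 each), with a log2 fold change of 0.01. Car8 had 1945, 1878 and 1969 CPM in low-Mn mice, against 1884, 1776 and 1880 CPM in normal-Mn mice. For Car8 the low-Mn mice were mostly the higher, with an overlap between the diets, and the log2 fold change was 0.06 (interval -0.02 to 0.15, edgeR adjusted p = 0.573).

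The 5 genes of calcium stores and IP3 turnover had 4 log2 fold changes above 0 and 1 below, and 0 passed. Itpr1 (chr6:108213096-108551109), the IP3 receptor and the most counted of all 31 genes, had 3987, 4061 and 4331 CPM in low-Mn mice, against 4050, 3703 and 4240 CPM in normal-Mn mice. The spread within each diet was wider than the difference between them (log2 fold change 0.05, interval -0.06 to 0.15). Atp2a3 (chr11:72961169-72993044), a calcium pump of the endoplasmic reticulum, had 338, 346 and 334 CPM in low-Mn mice, against 328, 291 and 332 CPM in normal-Mn mice. Its diets did not overlap, normal-Mn replicate 2 lay well below the rest, and the log2 fold change was 0.10 (standard error 0.0491, edgeR adjusted p = 0.429), or 0.04 without that library. Ryr1 (chr7:29003344-29125179) had 81.7, 92.2 and 84.5 CPM in low-Mn mice, against 81.2, 79.7 and 79.4 CPM in normal-Mn mice. Here low-Mn replicate 2 stood above the others, and without it the log2 fold change of 0.10 was 0.05. Both enzymes that remove IP3 gave values near 0, Inpp5a, a phosphatase, a log2 fold change of -0.01 (interval -0.10 to 0.08) and Itpka, a kinase, 0.02 (interval -0.09 to 0.14).

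Phospholipases of both zebrin classes had similar values. Plcb4 (chr2:135659011-136014593), the form of zebrin-negative stripes, had 288, 282 and 304 CPM in low-Mn mice, against 288, 263 and 266 CPM in normal-Mn mice. Plcb3 (chr19:6952325-6976470), the form of zebrin-positive stripes, had 78.9, 80.7 and 76.0 CPM in low-Mn mice, against 73.8, 72.9 and 73.9 CPM in normal-Mn mice. Both had a log2 fold change of 0.10 (standard errors 0.0471 and 0.0520, edgeR adjusted p = 0.424 and 0.478), and only the diets of Plcb3 did not overlap. The ratio of Plcb3 to Plcb4 in CPM averaged 0.270 ± 0.0184 in low-Mn mice and 0.270 ± 0.0122 in normal-Mn mice (SD, n = 3 each).

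The other zebrin-linked genes are glutamate uptake and sugar metabolism genes. Slc1a6 (chr10:78780496-78814765), the glutamate transporter EAAT4, had 181, 206 and 183 CPM in low-Mn mice, against 181, 176 and 178 CPM in normal-Mn mice. Low-Mn replicate 2 was far above the rest, and the lowest low-Mn mouse barely exceeded the highest normal-Mn mouse (log2 fold change 0.09, edgeR adjusted p = 0.483, and 0.03 without low-Mn replicate 2). Aldoc had 1978, 2102 and 1875 CPM in low-Mn mice, against 2004, 2095 and 2019 CPM in normal-Mn mice. The diets overlapped, with a log2 fold change of -0.04 (interval -0.13 to 0.05). The ratio of Aldoc to Slc1a6 in CPM was 10.9, 10.2 and 10.2 in low-Mn mice, against 11.1, 11.9 and 11.4 in normal-Mn mice. This ratio, which had no test, was lower in every low-Mn mouse. It was picked out from several computed ratios, and all the others overlapped between the diets. Among them, Aldoc to Plcb4 had 6.17 to 7.46 in low-Mn mice, against 6.96 to 7.96 in normal-Mn mice. The diets did not overlap in 17.1% of all tested genes either, and no such share was computed for ratios. A change in zebrin-linked genes cannot be read from it.

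Of the remaining signalling genes, 5 had values below 0 and 2 above. Gng13 (chr17:25717171-25719406) had 176, 169 and 165 CPM in low-Mn mice, against 190.3, 195 and 164 CPM in normal-Mn mice. Normal-Mn replicate 3 lay below every low-Mn mouse, and the log2 fold change was -0.11 (standard error 0.0564, edgeR adjusted p = 0.456), or -0.18 without that library (edgeR adjusted p = 0.172, the smallest over the alternatives of any of the 31 genes). Pcp2 (chr8:3623371-3625545) had 442, 445 and 413 CPM in low-Mn mice, against 423, 433 and 411 CPM in normal-Mn mice. It thus overlapped between the diets (log2 fold change 0.04, interval -0.06 to 0.13). Rgs8, which speeds the switching off of G proteins, averaged 1604 ± 40.4 CPM in low-Mn mice and 1519.9 ± 98.6 CPM in normal-Mn mice (SD, n = 3 each), and its log2 fold change was 0.08, or 0.02 without normal-Mn replicate 2. Gpr63, an orphan receptor, had a log2 fold change of -0.04 with a wider interval (-0.26 to 0.19) at 23.0 ± 4.13 CPM in low-Mn mice and 23.6 ± 1.99 CPM in normal-Mn mice (SD, n = 3 each).

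Cyclic GMP signalling serves long-term depression of the parallel fibre synapse, and 0 of its 3 genes passed. Ppp1r17 (chr6:56017497-56032689), the substrate of the cyclic GMP dependent kinase and an inhibitor of protein phosphatases, had 235, 231 and 229.9 CPM in low-Mn mice, against 242, 238 and 248 CPM in normal-Mn mice. Every low-Mn mouse was lower, by a log2 fold change of -0.07 with an interval of -0.15 to 0.02 (edgeR adjusted p = 0.572). The kinase gene Prkg1 had 16.9, 20.5 and 18.7 CPM in low-Mn mice, against 17.2, 16.4 and 23.1 CPM in normal-Mn mice. Normal-Mn replicate 3 lay above all others, and the log2 fold change was -0.01 with one of the widest intervals of the set (-0.27 to 0.24). Pde5a, which breaks down cyclic GMP, had a log2 fold change of -0.04 (interval -0.17 to 0.08).

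Of the 5 transcription regulators of Purkinje neurons 0 passed, and low-Mn replicate 2 was the highest library for 4 of them. Rora (chr9:68653786-69388246) had 400.2, 417 and 436 CPM in low-Mn mice, against 414, 417 and 433 CPM in normal-Mn mice. The diets interleaved (log2 fold change -0.01, interval -0.10 to 0.08, edgeR adjusted p = 0.946). Pcp4, Dner, Plcb3 and Arhgef33, whose windows with AGGTCA are printed above, had log2 fold changes of 0.01, 0.01, 0.10 and -0.01. Pcp2, Rgs8 and Gpr63, which also had the core, had 0.04, 0.08 and -0.04. Whether RORalpha acts on any of these genes was not tested. The LIM homeobox gene Lhx5 (chr5:120431699-120441223) had 23.7, 30.7 and 23.0 CPM in low-Mn mice, against 24.2, 24.4 and 24.2 CPM in normal-Mn mice. Its partner Lhx1 (chr11:84518284-84525535) had 63.8, 71.5 and 66.1 CPM in low-Mn mice, against 67.8, 57.9 and 61.7 CPM in normal-Mn mice. Low-Mn replicate 2 was the highest library for both, and also for Skor2 at 21.6 CPM, with at most 17.8 CPM in the other low-Mn mice and 17.3 to 18.8 CPM in normal-Mn mice. Without that library the log2 fold change of Lhx5 was -0.06 in place of 0.08, that of Skor2 -0.06 in place of 0.05 and that of Lhx1 0.06 in place of 0.10. Foxp2 averaged 10.8 ± 0.573 CPM in low-Mn mice and 10.7 ± 0.394 CPM in normal-Mn mice (SD, n = 3 each).

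Genes of the membrane, cytoskeleton and vesicles gave 3 values above 0 and 3 below. Stac (chr9:111561437-111690348), an adaptor protein that associates with calcium channels, had 20.5, 20.6 and 18.8 CPM in low-Mn mice, against 20.8, 16.7 and 15.8 CPM in normal-Mn mice. Normal-Mn replicate 1 was above all low-Mn mice, and the largest log2 fold change of the 31 genes, 0.17, had an interval of -0.06 to 0.39 (edgeR adjusted p = 0.570). It was 0.30 without normal-Mn replicate 1 and 0.09 without normal-Mn replicate 3. Clmn, which encodes the actin binding protein calmin, had 241, 255 and 275 CPM in low-Mn mice, against 265, 260.4 and 294 CPM in normal-Mn mice. The diets overlapped at a log2 fold change of -0.09 (interval -0.20 to 0.03). Doc2b, a calcium sensor of vesicle release, had a log2 fold change of 0.07, Dner, a Notch-like membrane protein of the dendrite, 0.01, Arhgef33, by its name a guanine nucleotide exchange factor, -0.01, and Nefh, the heavy neurofilament subunit, -0.04. The intervals of these 4 genes lay between -0.16 and 0.18, and none of the 4 passed (edgeR adjusted p = 0.586 to 0.943).

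**Figure D3:**
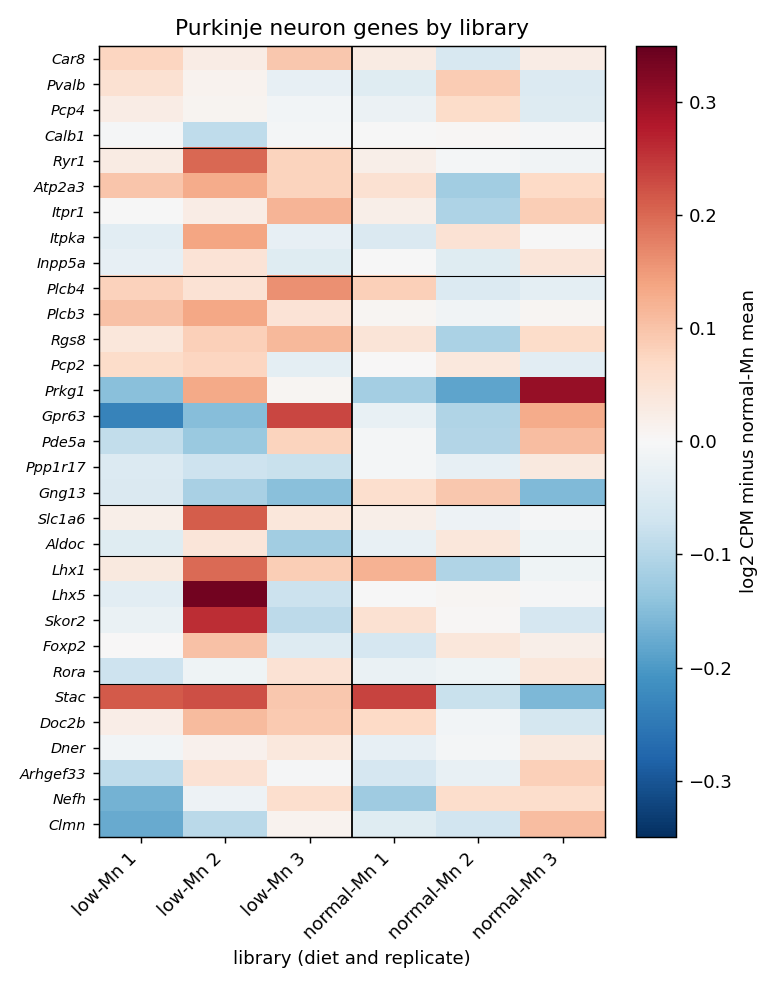
Deviation of each gene in each library from its normal-Mn mean, in log2 CPM (red higher, blue lower), with low-Mn mice on the left and genes grouped by role in the order of the plot of intervals. Low-Mn replicate 2 stands out for Lhx5, Skor2, Lhx1, Ryr1 and Slc1a6.

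Counted by library, low-Mn replicates 1 to 3 held the highest value of 0, 13 and 7 of the 31 genes and the lowest of 5, 2 and 5. Normal-Mn replicates 1 to 3 held the highest value of 1, 4 and 6 and the lowest of 3, 9 and 7. The median deviation from the normal-Mn mean was -0.0034, 0.050 and 0.038 in low-Mn replicates 1 to 3, against -0.0012, -0.015 and 0.0065 in normal-Mn replicates 1 to 3 (log2 CPM). The low-Mn libraries thus differed among themselves by about as much as they differed from the normal-Mn libraries.

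Other genes of the same synapse and cell gave no call either. Of 21 genes of the parallel fibre synapse and its calcium pathway, 0 rose and 0 fell by edgeR's test, with a median log2 fold change of -0.0010, and of 14 further Purkinje neuron genes 0 rose and 0 fell, with a median of -0.014. At an unadjusted p under 0.05, edgeR counted 0 of these 35, and the diets did not overlap in 4 (11.4%, against 17.1% of all tested genes). Gad1, which makes the transmitter GABA and is shared by all inhibitory neurons of the cerebellum, had 612, 623 and 623 CPM in low-Mn mice, against 645, 669.8 and 649 CPM in normal-Mn mice. Its low-Mn values were all lower (log2 fold change -0.08, interval -0.16 to 0.0037, edgeR adjusted p = 0.433). Cbln1, released by parallel fibres to bind the delta receptor of Purkinje neurons, had a log2 fold change of -0.07, the kinase gene Camk2b 0.05, Grid2ip, a scaffold of that receptor, 0.07, the GABA-B receptor gene Gabbr2 -0.08 and the transcription factor gene Ebf2 -0.21. The interval of Ebf2 was -0.47 to 0.05, and the edgeR adjusted p of these 5 genes ran from 0.521 to 0.679.

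Markers of other cells in the tissue were set beside the Purkinje neuron genes, since several of the 31 genes are shared with them. Of 12 granule neuron markers, 0 passed edgeR's test and the median log2 fold change was 0.016, with summed levels of 5744 to 5869.8 CPM in low-Mn mice, against 5558 to 5964 CPM in normal-Mn mice. Among them was Gabra6, a GABA receptor subunit, with 636 ± 20.9 CPM in low-Mn mice and 637 ± 19.4 in normal-Mn mice (SD, n = 3 each). Of 8 molecular layer interneuron markers, 0 passed, with a median of -0.14, and summed levels were 1323 to 1354 CPM in low-Mn mice, against 1391 to 1500.0 CPM in normal-Mn mice. Pvalb, Rora and Dner, which interneurons make too, had log2 fold changes of 0.01, -0.01 and 0.01. Of 12 astrocyte and Bergmann glia markers, 0 passed, with a median of -0.067 and summed levels of 5334 to 5467 CPM in low-Mn mice, against 5566 to 5798 CPM in normal-Mn mice. The glutamate transporter gene Slc1a3 of this list had a log2 fold change of -0.07 (edgeR adjusted p = 0.494). The part of these lists in the values of Aldoc, Pvalb, Rora and Dner was not tested.

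Of 8 oligodendrocyte markers, 1 fell and 0 rose by edgeR's test, with a median of -0.13. Of 6 choroid plexus markers, 1 fell (Kl, which encodes klotho, -0.51, edgeR adjusted p = 0.00183) and 0 rose, with a median of -0.25. Kl was named after its values were seen. The myelin gene Mbp had a log2 fold change of -0.12 (edgeR adjusted p = 0.252) and Ttr, the choroid plexus gene for transthyretin, -0.20 (edgeR adjusted p = 0.221). Summed levels of the oligodendrocyte markers were 6855 to 7138 CPM in low-Mn mice, against 7313 to 8129.9 CPM in normal-Mn mice, and those of the choroid plexus markers 2192 to 2719.7 CPM in low-Mn mice, against 2531 to 3063 CPM in normal-Mn mice. Nefh is also found in deep nuclear and brain stem neurons, of whose 8 markers 6 were tested and 0 passed, with a median of -0.15 and summed levels of 477 to 553 CPM in low-Mn mice, against 503 to 615 CPM in normal-Mn mice. Their part in the value of Nefh was not tested. Chat and Prph of that list had at most 3 and 22 counts in any library. In the plot of list medians by library, the Purkinje neuron list lay within 0.050 of the normal-Mn mean in all 6 libraries.

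**Figure D4:**
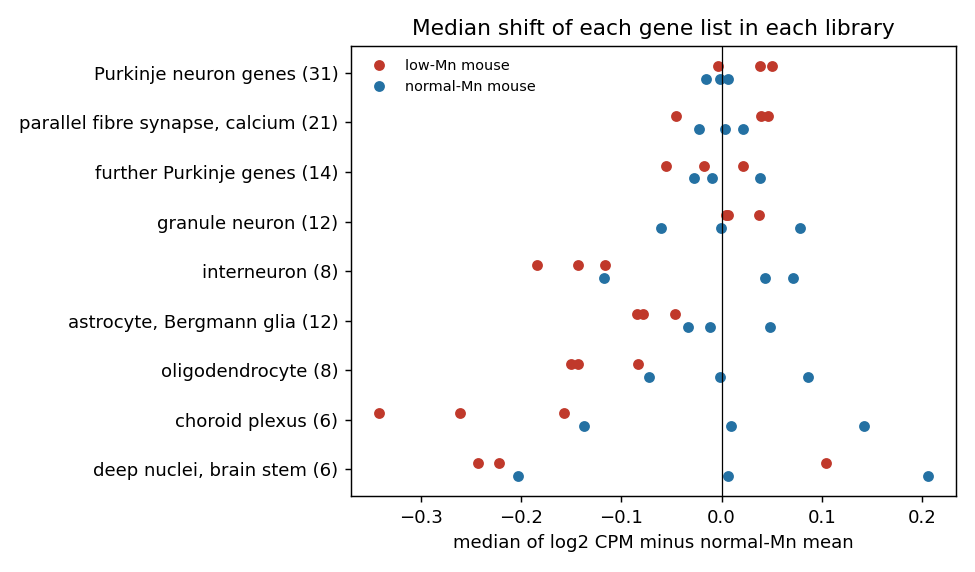
Median over each list of the deviation from the normal-Mn mean in log2 CPM, with 1 point per library (low-Mn red, normal-Mn blue) and, after each list's name, how many of its genes were tested. The Purkinje neuron genes lie between -0.015 and 0.050 in all libraries, whereas for the choroid plexus markers the 3 low-Mn libraries lie between -0.34 and -0.16 and the normal-Mn libraries between -0.14 and 0.14.

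Exons of other genes overlap those of 5 of the 31 genes by at least 10%, and their counts are uncertain to that extent. The library kit named in the methods (NEBNext Ultra II RNA) does not mark strand, so reads of such genes on opposite strands cannot be told apart. Pcp2 shares 51.5% of its exon bases with Pet100 on the opposite strand, which had 13.1 to 16.6 CPM, and Gng13 51.6% with Chtf18, which had 1.69 to 3.49 CPM. On its own strand Pcp4 shares 23.7% with Igsf5, which had 0.379 to 1.13 CPM. Stac and Gpr63 are the other 2. The partners of Pcp2, Gng13 and Pcp4 were counted far below them, but these counts come from the same assignment of reads. Pet100 had 15.5 to 16.6 CPM in low-Mn mice, against 13.1 to 13.7 CPM in normal-Mn mice, while Chtf18 and Igsf5 overlapped between the diets. The part of the partners in the values of the 3 genes was not tested. For the 26 genes with less overlap the median log2 fold change was 0.022 and 0 passed edgeR's test, with 0 at an unadjusted p under 0.05.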

How the data were processed

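Cerebellar RNA of 3 low-Mn and 3 normal-Mn mice was sequenced as polyadenylated RNA and aligned by the authors with STAR. The submitters' notes also name RSEM, FastQC, DESeq2 and mm10, and per the methods the reference and annotation came from Ensembl, with versions and release not given in the sources used here. Expected counts per gene from RSEM, not normalized, were deposited by the authors. Of 53807 entries, 92 were spike-ins at 0 counts and were left out. The low-Mn columns are named by replicate number alone and were assigned by that number, since the other columns name the 35 ppm diet.

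Expected counts were rounded, filtered with filterByExpr (minimum count 10, total 15) and scaled by TMM, and diets were compared with glmQLFTest of edgeR 4.0.16 in R 4.3.3 at an adjusted p of 0.05 over 16123 genes. Intervals (95%) use the quasi-likelihood standard error. Levels are CPM with TMM factors, and deviations are log2 CPM with a prior count of 2. Symbols, positions and exon lengths are from GENCODE M21 (GRCm38), and upstream windows from RefSeq (GRCm38.p6). All 31 genes are named, with the 4 of each related list with the smallest p, of which some are not reported here. The members and lists were chosen with earlier results of these data known. Alternatives were RLE and upper quartile scaling, no filter, an average of at least 100 counts, unrounded counts, limma-voom (limma 3.58.1), DESeq2 1.42.0, the replicate number as a block and each replicate left out. Python 3.11.15 and matplotlib 3.10.9 were used for tables and figures.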

Additional observations from a re-analysis of the deposited data

How the results depend on the processing

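The count of 0 calls among the 31 genes, and among the 35 related genes, held under all 14 alternatives, and the smallest adjusted p of any of the 31 was 0.172. DESeq2 gave no adjusted p for 6 of them (Foxp2, Lhx5, Stac, Gpr63, Prkg1 and Skor2). Over all genes, calls numbered 96, but 424 with no filter on low counts, 63 with limma-voom and from 37 to 93 with a replicate left out, and the causes were not tested. The median log2 fold change of the 31 genes ran from -0.00038 to 0.056 with a replicate left out.

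Signs of values near 0 were not stable. With upper quartile scaling Pvalb had -1.55e-05 and Pcp4 -0.0042, with no filter Pcp4 had -0.00091, and with limma-voom Prkg1 had 0.0028. With a replicate left out, log2 fold changes ran from -0.013 to 0.057 for Pvalb, -0.082 to 0.00044 for Aldoc, -0.015 to 0.040 for Pcp4, -0.0073 to 0.090 for Itpr1, -0.00038 to 0.031 for Dner, -0.036 to 0.013 for Inpp5a, -0.048 to 0.028 for Arhgef33, -0.034 to 0.056 for Itpka, -0.10 to 0.020 for Nefh, -0.045 to 0.018 for Rora, -0.11 to 0.011 for Pde5a, -0.057 to 0.16 for Lhx5, -0.19 to 0.057 for Gpr63, -0.059 to 0.12 for Skor2, -0.11 to 0.15 for Prkg1, -0.022 to 0.051 for Foxp2 and -0.027 to 0.021 for Gabra6. The sign held but the size moved by over 1.5 times for Car8 (0.036 to 0.083), Calb1 (-0.047 to -0.0051), Pcp2 (0.015 to 0.070), Gng13 (-0.18 to -0.061), Rgs8 (0.024 to 0.11), Slc1a6 (0.030 to 0.13), Atp2a3 (0.040 to 0.13), Doc2b (0.044 to 0.11), Clmn (-0.14 to -0.031), Lhx1 (0.049 to 0.17), Stac (0.091 to 0.30) and Ryr1 (0.053 to 0.14). Ttr passed with no filter (adjusted p = 1.9e-05) and without low-Mn replicate 1 (-0.30, adjusted p = 0.034), and Mbp with no filter (adjusted p = 0.0292).

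With the replicate number as a block, edgeR called 128 genes and 0 of the 31. It counted 4 of the 31 at an unadjusted p under 0.05, and the share of all genes in that fit is not given here. Deviations of same-numbered libraries correlated at 0.030, -0.024 and 0.036 across genes. Low-Mn replicates 1 and 3 correlated best with their own number, and low-Mn replicate 2 did not. Correlations this small, from 3 libraries per diet, cannot decide whether the numbers paired the mice. The intervals of Stac, Foxp2, Prkg1, Gpr63, Lhx5 and Skor2 reached past a 1.2-fold difference. These 6 genes were under 50 CPM and also had the largest estimated coefficients of variation between mice of the 31 (0.0751 to 0.0937, against a median of 0.0438 over the 31), and the share of each in the width was not tested.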
